A study of Mus musculus with 12 samples.

Results

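The 9 genes Scn1a, Scn3a, Scn8a, Scn9a, Scn10a, Scn11a, Scn2b, Scn3b and Scn4b code for subunits of voltage-gated sodium channels, 6 of them pore-forming alpha subunits and 3 of them beta subunits. They were picked by gene symbol from 17915 gene names in tables of RNA from cultured mouse dorsal root ganglion (DRG) neurons, the sensory neurons of the body. The cultures came from adult mice of the C57B6 background, 1 mouse per culture, and were labelled GAR+/+ (WT below) or GAR+/- (het below). The series title speaks of axons deficient in nucleolin, an RNA-binding protein, and the labels describe the GAR allele no further, give no sex and no age beyond adult, and name no drug treatment. Cells grew for 3 days on porous inserts of modified Boyden chambers, in which neurites reach the lower side of the membrane while cell bodies (soma) stay on the upper side. Each of the 4 groups, WT soma, het soma, WT neurites and het neurites, had 3 libraries. All 9 genes were named in the soma table and in the neurite table, with 17 and 15 transcripts. For Scn3a no transcript stood in both tables, so 8 of the 9 genes could be compared between compartments.

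Voltage-gated sodium channels open when a membrane is depolarised and carry the rising phase of the action potential. The alpha subunit forms the pore and the voltage sensors, and beta subunits are membrane proteins with an immunoglobulin-like domain that modify gating, surface level and adhesion. In sensory ganglia Scn9a (the channel Nav1.7), Scn10a (Nav1.8) and Scn11a (Nav1.9) are known from nociceptors, the neurons that sense pain, whereas Scn1a (Nav1.1) and Scn8a (Nav1.6) are known from larger myelinated neurons and from nodes of Ranvier, and Scn3a (Nav1.3) from embryonic and injured neurons.

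The sequences of 2 exons are shown first because counts of Scn9a may rest in part on 1 of them, and the other, of Scn3a, nearly matches it. The deposited tables count each transcript of a gene separately, and the counting rule is not given in the sources used here. Over all genes with several transcripts annotated in GENCODE M21, 7.75% of the 16000 transcripts without an exonic base of their own were listed in either table, against 49.5% of those with 1 to 99 such bases and 76.3% of those with 100 or more. Scn10a, Scn11a and Scn4b each have 1 annotated transcript and are counted over their whole length of 6416, 5837 and 4982 bases. In Scn9a, the only bases found in no other transcript of the gene are, for the coding transcript Scn9a-207, a coding exon of 92 bases. It belongs to a pair of alternative exons, known as neonatal and adult forms in several alpha subunit genes, that code for the same stretch of the first domain of the channel. Scn3a-201, a listed coding transcript of Scn3a, has an exon of the same length and kind, which 2 of the 4 annotated transcripts of that gene hold. Both are given 5′ to 3′ on the gene's strand, from GENCODE M21 transcripts (GRCm38), and capitals mark the bases at which they differ.

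Scn9a-207, coding exon at chr2:66563336-66563427, minus strand: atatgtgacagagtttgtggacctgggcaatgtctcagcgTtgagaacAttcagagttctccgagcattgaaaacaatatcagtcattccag

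Scn3a-201, coding exon at chr2:65525695-65525786, minus strand: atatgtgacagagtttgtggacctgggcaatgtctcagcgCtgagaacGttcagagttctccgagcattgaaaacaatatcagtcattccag

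The exons matched at 90 of 92 bases (97.8%). Reads that lie within these exons could be split between Scn9a and Scn3a by the authors' counting, so the counts of these transcripts are uncertain to that extent, and this was not tested. Scn3a, Scn1a and Scn9a lie in 1 cluster on chromosome 2 (chr2:65457118-66634962), Scn10a and Scn11a next to each other on chromosome 9 (chr9:119608456-119825456), and Scn2b and Scn4b also side by side on that chromosome (chr9:45117782-45154152).

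Library totals ran from 14965973 to 32434916 counts, so that 3 counts, the limit that a count of 0 allows, were worth 0.0925 to 0.2005 counts per 1000000 (CPM); this covers counting error only. Summed levels of 12 pan-neuronal marker genes were 11155 to 13096 CPM for WT soma and 12389 to 15190 for het soma, and lower in neurites, at 8147 to 11114 (WT) and 9688 to 12634 (het). Those of 6 satellite glia genes were 653 to 943 and 655 to 773 CPM in WT and het soma, and 880 to 1049 and 711 to 908 in WT and het neurites. Fibroblast genes such as Col1a2 and Schwann cell genes were also present in every group. The 7 genes listed as nuclear RNA, Malat1 among them, summed to 8131 to 10714 CPM in WT soma and 8288 to 9230 in het soma. In neurites they still summed to 6286 to 10196 (WT) and 4860 to 10157 CPM (het). Malat1 made up most of these sums, with means of 8039 CPM in WT soma and 7288 in WT neurites. Of the 7 genes, 6 had log2 fold changes of neurites against soma below 0 in WT (median -0.63, 1 at an edgeR adjusted p under 0.05). In het 6 were also below 0 (median -0.40, none at that threshold). The part of cell bodies in the RNA of the neurite libraries was not tested. The macrophage markers Ptprc and Aif1 were not in both tables, and the other 4 genes of that list summed to 10.3 to 36.4 CPM in all libraries.

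Among the alpha subunits, the nociceptor channel genes Scn10a and Scn11a had by far the most counts, and Scn4b led the beta subunits. For comparison between genes, levels were divided by transcript length. In WT soma they were 183 ± 15.5 CPM per kb for Scn10a (mean ± SD, n = 3 libraries here and below), 108 ± 20.8 for Scn4b and 78.0 ± 5.15 for Scn11a. Scn2b followed with 4.57 ± 1.37 CPM per kb, Scn9a with 3.17 ± 0.467, Scn3b with 1.10 ± 0.135, Scn1a with 0.796 ± 0.0830 and Scn8a with 0.0748 ± 0.0201. The ranges of neighbours in this order did not overlap in WT soma or het soma. In neurites the order of the means was the same, but the libraries of Scn4b and Scn11a overlapped in WT (49.2 to 88.0 and 59.4 to 66.6 CPM per kb) and in het (60.2 to 91.6 and 54.1 to 75.3), as did those of Scn9a and Scn3b in het neurites.

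The lower ranks depended on which length was used. Per kb of bases found in no other transcript of the gene, a scale chosen after seeing the data, Scn2b stood at 30.5 ± 9.17 CPM per kb in WT soma, Scn1a at 27.9 ± 2.90, Scn8a at 5.52 ± 1.48, Scn9a at 4.12 ± 0.796 and Scn3b at 3.33 ± 0.353. Scn1a rests here on 239 bases, most of them a first exon that is not coding, Scn8a on 153, Scn2b on 698, Scn3b on 1125 and Scn9a on 2931, of which 2498 belong to the retained intron form Scn9a-204. Counts were not confined to such bases. The transcript Scn1a-204, with 2 bases of its own, had 19 to 50 counts in each soma library. Scn8a-205, with no base of its own, had 1 to 6. Values on this scale may thus be too high where such bases are few, by an amount that was not tested. The first 3 ranks among these genes, Scn10a, Scn4b and Scn11a, were the same on each scale. The values of these 3 could not change, because each has 1 annotated transcript and all its bases are its own. Over all genes, transcripts of genes with 1 annotated transcript had a median of 119 counts per kb in soma. Listed transcripts of genes with several had medians of 11.9 to 21.5. The bearing of this on the lead of the 3 genes was not tested. The low level of Scn9a relative to Scn10a is a level of the listed transcripts, and its size relative to the other channel genes was not settled by these tables.

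**Figure D1:**
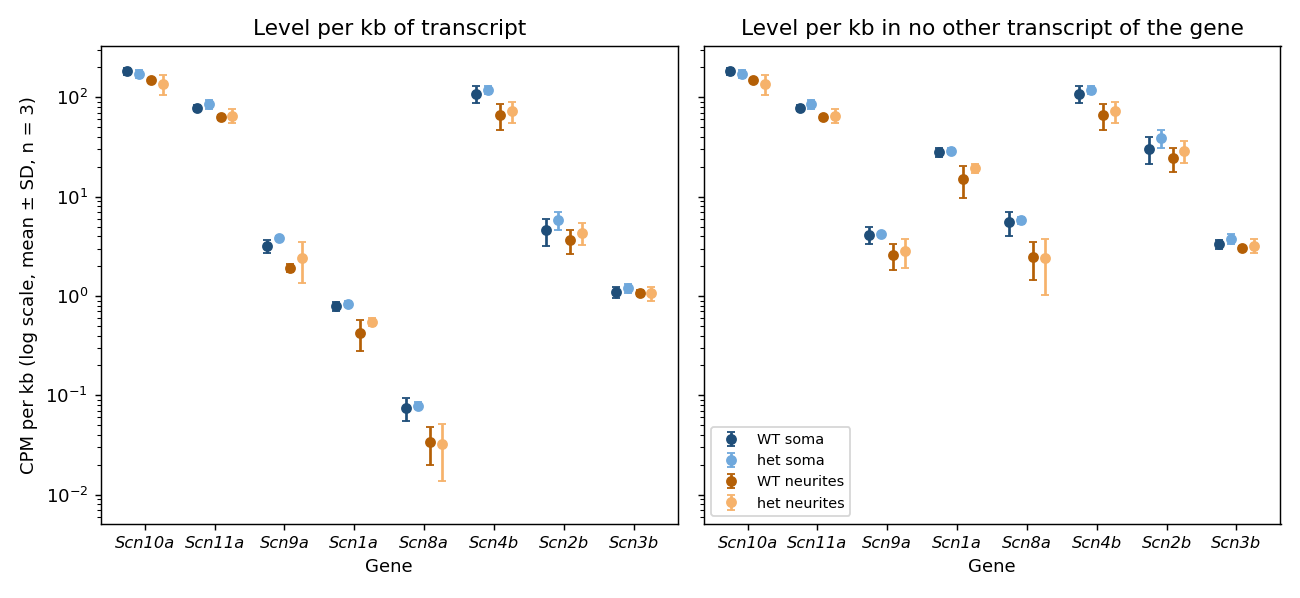
Level of 8 sodium channel genes in each group, in CPM per kb on a log scale (points are means, bars SD, n = 3 libraries). The left panel divides by transcript length and the right panel by bases in no other transcript of the gene. Scn10a, Scn4b and Scn11a lead in each panel, and their values are the same in both because each has 1 annotated transcript. Scn1a moves from 0.796 to 27.9 CPM per kb in WT soma and Scn8a from 0.0748 to 5.52. In the right panel these 2 genes are divided by few bases (239 and 153).

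The first comparison asked which sodium channel mRNAs differed between neurites and soma in WT cultures. The estimates of all 8 tested genes lay below 0, with a median log2 fold change of -0.51, against 0.01 over all 15990 genes tested. Scn1a fell in neurites, and it was the only one of the 8 to pass an adjusted p of 0.05 (edgeR quasi-likelihood test, Benjamini-Hochberg adjustment over all genes). Among all genes, 0.688% were called lower and 2.41% higher. At an unadjusted p under 0.05, 5 of the 8 were lower, against 8.26% of all genes lower and 11.4% higher. For 4 of the 8, all neurite libraries lay below all soma libraries, against 9.96% of all genes lower and 12.4% higher. In bulk RNA such as this, fewer cells of a type and less RNA per cell cannot be told apart.

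The plot of CPM by library shows this spread for each gene. Scn10a stood at 1261, 1202 and 1068 CPM in WT soma and at 984, 933 and 958 CPM in WT neurites. All its neurite libraries were below all soma libraries, and the log2 fold change was -0.30 ± 0.14 (SE, here and below), with an adjusted p of 0.264 in the edgeR test. Scn11a, its neighbour on chromosome 9, had 482, 460.4 and 423 CPM in soma and 389, 347 and 366 CPM in neurites. Its groups did not overlap either, and the log2 fold change was -0.31 ± 0.12 (edgeR adjusted p = 0.171).

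Scn9a, the third channel known from nociceptors, measured 14.5, 11.97 and 9.79 CPM in WT soma and 5.74, 9.95 and 6.97 CPM in WT neurites. The second neurite library reached above the lowest soma library, so the groups overlapped. The log2 fold change was -0.68 ± 0.24 with an edgeR adjusted p of 0.131.

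Scn1a, known from larger sensory neurons, had 7.38, 6.002 and 6.59 CPM in WT soma and 2.59, 4.98 and 3.15 CPM in WT neurites, from 148 to 192 and 37 to 81 counts. No neurite library reached the lowest soma library, and the same-numbered neurite library was lower for 3 of 3 numbers. Scn1a fell 1.87-fold (log2 fold change -0.90 ± 0.21, edgeR adjusted p = 0.0319). Its transcripts Scn1a-203 and Scn1a-204 gave similar estimates, -0.91 ± 0.22 and -0.91 ± 0.39, and the first passed the threshold over all transcripts (edgeR adjusted p = 0.0382, where 1.58% of 29102 transcripts were called) and the second did not (0.275).

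Scn8a, the channel of mature nodes of Ranvier, was counted at 16, 22 and 24 in WT soma and at 8, 4 and 8 in WT neurites, or 0.615, 0.852 and 1.07 against 0.560, 0.269 and 0.311 CPM. Although the groups did not overlap, the few counts left a wide error, and the log2 fold change of -1.17 ± 0.49 had an edgeR adjusted p of 0.199.

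Of the beta subunits, Scn4b, whose protein binds the alpha subunit through a disulfide bond, measured 619, 578 and 422 CPM in WT soma and 311, 438 and 245 CPM in WT neurites. The groups overlapped by the second neurite library, and the log2 fold change was -0.70 ± 0.22 (edgeR adjusted p = 0.0996). Scn2b, also bound by a disulfide bond, had 28.6, 18.7 and 16.6 CPM in soma and 20.2, 18.8 and 11.8 CPM in neurites. Scn3b, which associates without such a bond, had 3.65, 3.41 and 4.18 CPM in soma and 3.22, 3.497 and 3.58 CPM in neurites. Libraries of the compartments were interleaved for Scn2b and for Scn3b, and their estimates of -0.34 ± 0.27 and -0.12 ± 0.19 did not pass (edgeR adjusted p = 0.519 and 0.768).

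**Figure D2:**
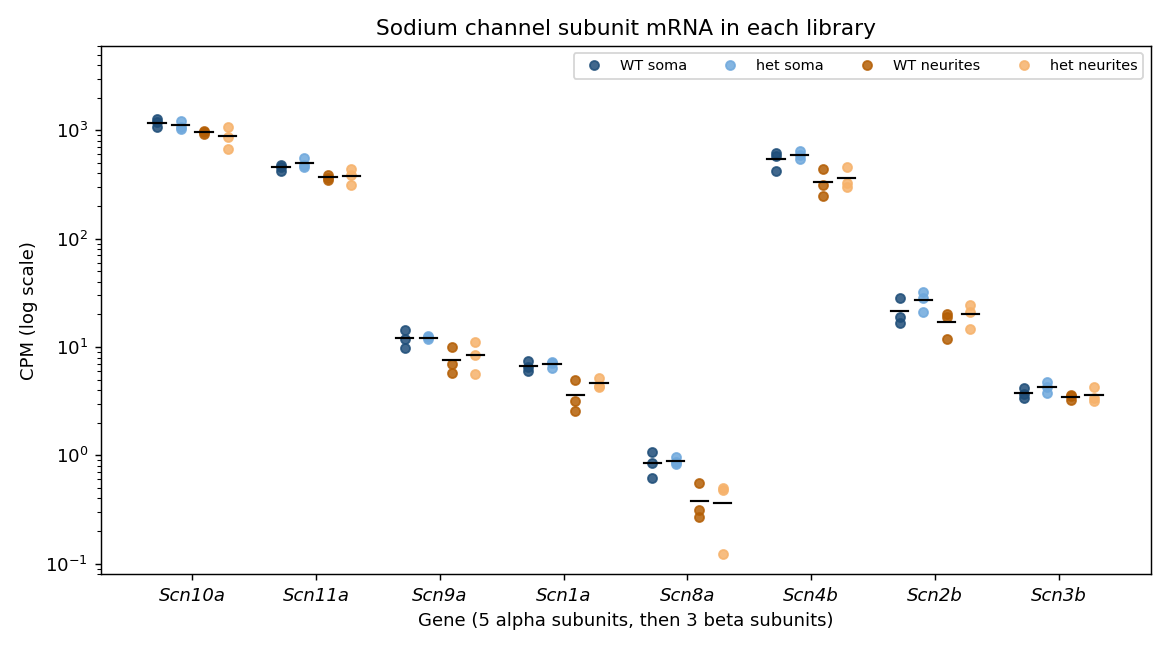
CPM of 8 sodium channel genes in each of 12 libraries on a log scale (points are libraries, black lines group means). Scn10a, Scn11a and Scn4b lie far above the other genes, and the 3 WT neurite libraries of Scn1a (2.59 to 4.98 CPM) lie below its 3 WT soma libraries (6.002 to 7.38 CPM).

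The call of Scn1a was sensitive to the libraries in the fit. It was lost without any of the 3 WT soma libraries or without WT neurite library 1 or 3, at edgeR adjusted p-values of 0.0671 to 0.117, and it was kept without WT neurite library 2 (adjusted p = 0.00859, log2 fold change -1.20). With the 6 WT libraries alone in the fit it was lost as well (adjusted p = 0.126). With neurites and soma of the same number paired as a block, 3 of the 8 genes passed in WT, namely Scn1a (edgeR adjusted p = 0.0112), Scn4b (log2 fold change -0.73, adjusted p = 0.00108) and Scn9a (-0.68, adjusted p = 0.0499). That fit, which paired the het libraries by number as well, called 1489 genes in all, against 495 without the block.

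Estimates for neuronal marker genes lay on the same side of 0 as those of the channels. In WT all 12 pan-neuronal genes had estimates below 0 in neurites (median log2 fold change -0.41, 2 passing), as had 7 of 8 nociceptor markers (median -0.54, 2 passing) and 5 of 7 markers of large-diameter neurons (median -0.39, none passing, 1 at an unadjusted p under 0.05 in edgeR). All 6 satellite glia genes had estimates above 0 (median 0.61, none passing, 3 at an unadjusted p under 0.05 in edgeR). Other non-neuronal lists were mixed. Estimates above 0 were found for 5 of 7 Schwann cell genes (2 passing), 4 of 6 fibroblast genes and 3 of 3 endothelial genes (none passing). All 3 tested macrophage genes had estimates below 0 (none passing). When library sizes were taken from the pan-neuronal counts alone, the median of all genes moved to 0.42 and 4 of the 8 channel genes stood below 0 and 4 above. Nefl and Tubb3 made up most of these counts in each group (means of 5014 and 4300 of 12030 CPM in WT soma), so the scale rests mainly on them. On that scale the log2 estimates were -0.53 for Scn1a (adjusted p = 0.0910), -0.29 for Scn9a, -0.32 for Scn4b and -0.74 for Scn8a, while Scn10a (0.13), Scn11a (0.12), Scn2b (0.07) and Scn3b (0.29) changed sign. None of the 8 passed on it. Put as counts per 1000 pan-neuronal counts, Scn10a stood at 98.0 ± 7.65 in WT soma and 107 ± 20.3 in WT neurites, and Scn1a at 0.558 ± 0.0875 and 0.384 ± 0.0657.

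**Figure D3:**
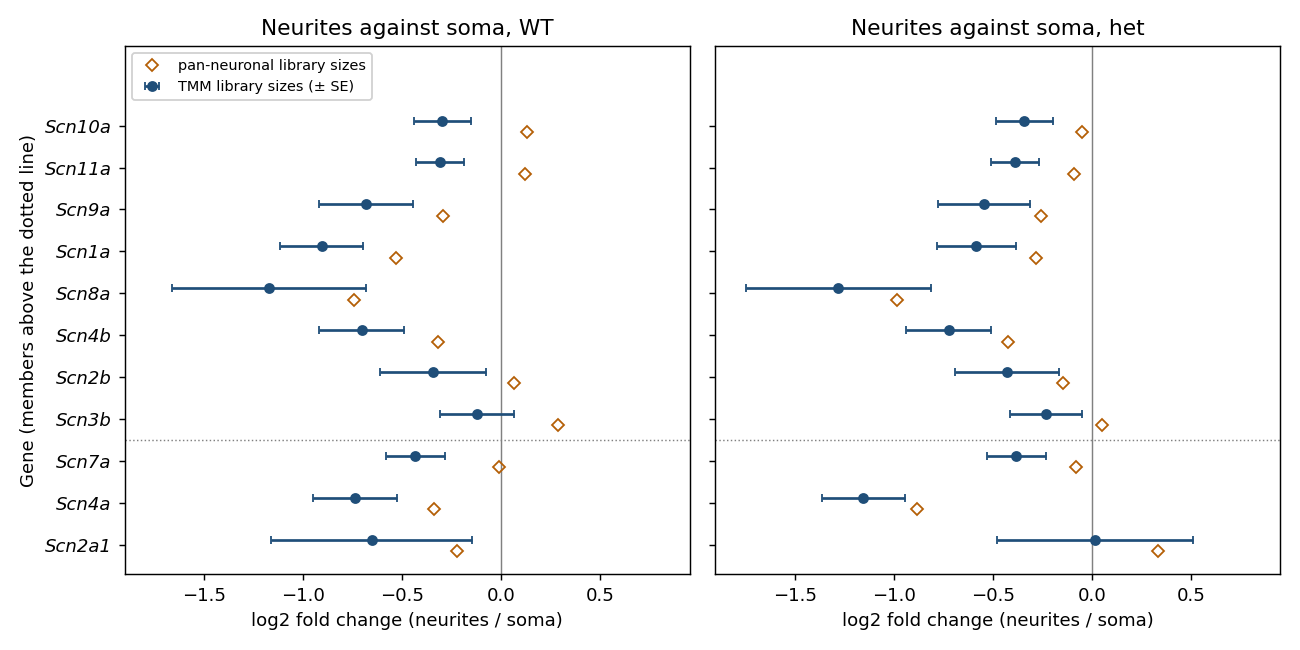
Log2 fold change of neurites against soma for 8 sodium channel genes and 3 other genes of the family, in WT (left) and het (right). Filled points with bars are edgeR estimates ± SE with TMM library sizes, and open diamonds are estimates with library sizes from pan-neuronal counts. The filled points of the 8 genes lie between -1.17 and -0.12 in WT and between -1.28 and -0.23 in het, and every diamond lies to the right of its filled point.

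The same comparison in het cultures gave estimates below 0 for all 8 genes (median log2 fold change -0.49, against -0.01 over all genes), and none passed in the edgeR test, where 0.0938% of all genes were called lower and 0.544% higher. At an unadjusted p under 0.05, 6 of the 8 were lower (6.75% of all genes were lower and 7.64% higher), and DESeq2 called 1, Scn4b. All neurite libraries lay below all soma libraries for 5 of the 8, against 10.6% of all genes lower and 11.7% higher. With library sizes from pan-neuronal counts, 7 stood below 0 and Scn3b above (0.05).

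Scn4b had 592, 649 and 546 CPM in het soma and 327, 456 and 299.7 CPM in het neurites, with no overlap. The log2 fold change was -0.72 ± 0.22 (edgeR adjusted p = 0.159). With same-numbered libraries paired as a block, Scn4b passed (edgeR adjusted p = 0.0030), in a fit that called 671 genes in all. The het numbers were not taken as pairs, as described under the processing of the data. Scn1a had 7.30, 7.11 and 6.37 CPM in het soma and 4.30, 5.14 and 4.41 CPM in het neurites, again without overlap, at -0.58 ± 0.20 (adjusted p = 0.203).

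Scn10a measured 1025, 1076 and 1230.4 CPM in het soma and 875, 1081 and 673 CPM in het neurites. The second neurite library lay within the range of soma, and the log2 fold change was -0.34 ± 0.14 (edgeR adjusted p = 0.287). Scn11a, at 461, 477 and 559.7 CPM in soma and 389.9, 439.6 and 316 CPM in neurites, did not overlap, at -0.39 ± 0.12 (adjusted p = 0.162). For Scn9a (-0.55 ± 0.23) and Scn8a (-1.28 ± 0.47) the libraries did not overlap either, and for Scn2b (-0.43 ± 0.26) and Scn3b (-0.23 ± 0.18) they did. Their adjusted p-values in edgeR ran from 0.224 to 0.623.

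Whether the step from soma to neurites differed between genotypes was tested as an interaction, the het change minus the WT change. None of the 8 genes passed in the edgeR test or with DESeq2, none had an unadjusted p under 0.05 (0.607% of all genes higher, 0.657% lower), and 0% of all genes were called. The estimates ran from -0.11 ± 0.26 for Scn3b and -0.11 ± 0.69 for Scn8a to 0.32 ± 0.29 for Scn1a, and every adjusted p was 0.9998. Passing in WT and not in het thus does not show that Scn1a differed between them. The intervals are wide relative to the changes themselves.

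The comparison of het with WT asked whether heterozygosity at GAR went with another level of these mRNAs within a compartment. In soma none of the 8 genes passed in edgeR or DESeq2, and 0% of all genes were called by edgeR. None had an unadjusted p under 0.05, against 2.11% of all genes higher and 7.05% lower. The libraries of the genotypes overlapped for all 8, whereas 8.86% of all genes were higher and 11.9% lower without overlap. With same-numbered soma libraries of the genotypes paired as a block, 520 genes were called in all and again none of the 8. The log2 fold changes ran from -0.08 ± 0.14 for Scn10a to 0.35 ± 0.26 for Scn2b, with 7 of 8 above 0 (median 0.11). Scn2b had 20.9, 28.1 and 32.3 CPM in het soma and 28.6, 18.7 and 16.6 CPM in WT soma. With library sizes from pan-neuronal counts the split turned, with 7 of 8 below 0, since that scale moved the median of all genes to -0.18. All 12 pan-neuronal genes had estimates above 0 in het soma (median 0.19), and 5 of 6 satellite glia genes below 0 (median -0.67). Their part in the values of the channel genes was not tested beyond that scale.

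In neurites none of the 8 passed in edgeR or DESeq2 either, while 0.494% of all genes were called higher and 2.78% lower in het. None had an unadjusted p under 0.05 (7.72% of all genes higher, 13.2% lower), and all 8 overlapped between genotypes (7.53% of all genes higher and 10.8% lower without overlap). Estimates ran from -0.13 ± 0.14 for Scn10a to 0.38 ± 0.21 for Scn1a (edgeR adjusted p = 0.325), with 6 of 8 above 0 (median 0.10). Without WT neurite library 2, in which Scn1a was highest of the WT neurite libraries, the estimate for Scn1a was 0.67 (adjusted p = 0.0396). On the pan-neuronal scale 7 of 8 stood below 0 and Scn1a at 0.11, with the median of all genes at -0.31. In het neurites 11 of 12 pan-neuronal genes had estimates above 0 and 5 of 6 satellite glia genes below 0 (medians 0.27 and -0.79).

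**Figure D4:**
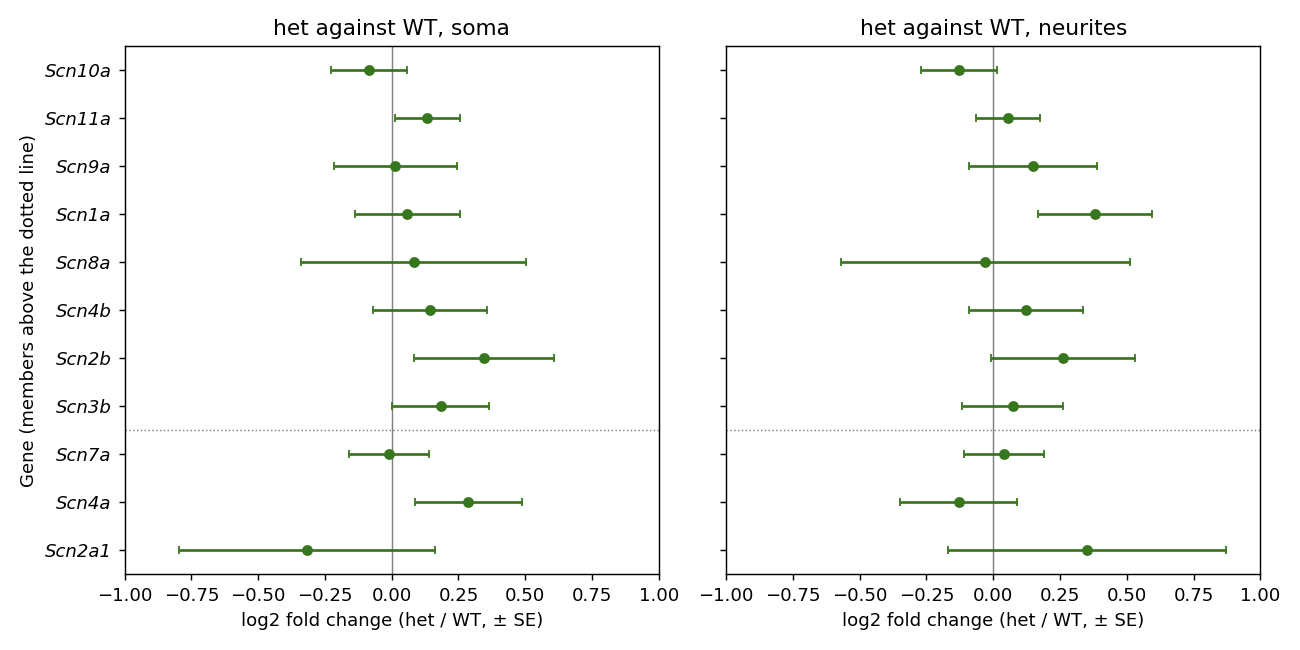
Log2 fold change of het against WT (points, edgeR estimates ± SE) for 8 sodium channel genes and 3 other genes of the family, in soma (left) and neurites (right). None of the genes shown passed the threshold, and those of the 8 lie between -0.08 and 0.35 in soma and between -0.13 and 0.38 in neurites.

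By transcript, Scn9a is the gene with the most listed forms, 4 in each table. The coding transcript Scn9a-207, whose only bases of its own are the first exon printed above, held 57.1 ± 1.82% of the Scn9a counts in WT soma. It held 59.6 ± 11.4% in WT neurites, and in het cultures 55.9 ± 2.48% (soma) and 54.4 ± 8.49% (neurites). The coding transcript Scn9a-201, which has 92 bases of its own in other exons, held 15.7 ± 2.55% and 16.4 ± 3.06% in WT soma and neurites, and 14.7 ± 1.798% and 19.0 ± 0.621% in het soma and neurites. The other 2 listed forms are annotated as retained introns. In WT neurites the share of Scn9a-204 was 24.6% in library 3 against 8.54% and 8.11% in libraries 1 and 2. In WT the neurite shares varied more between libraries than those of soma, whereas in het the share of Scn9a-201 varied less in neurites. The WT neurite shares rest on fewer Scn9a counts, 82, 148 and 179 against 376, 309 and 220 in WT soma. These are shares of what was counted for each form and not of Scn9a molecules, because the forms differ in bases of their own.

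**Figure D5:**
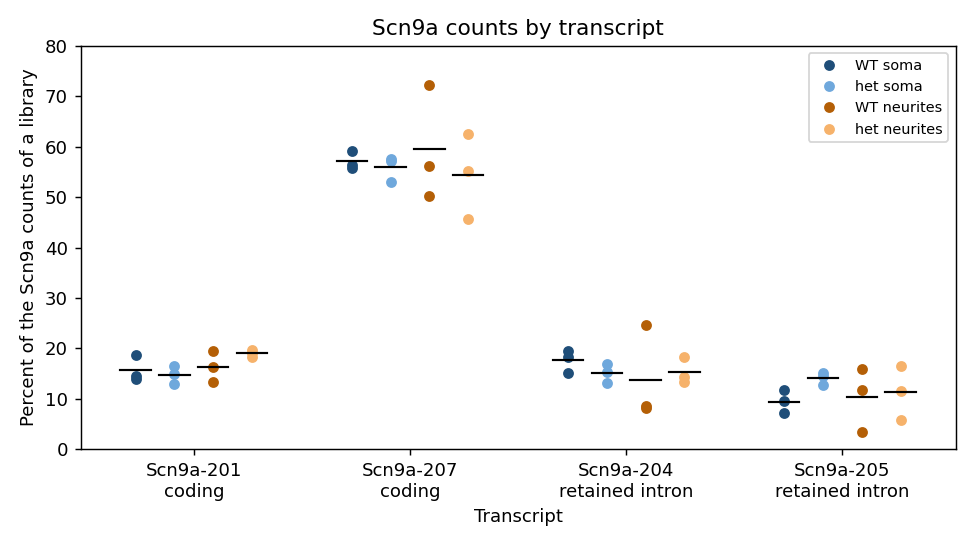
Share of the Scn9a counts of a library in each of 4 listed transcripts (points are libraries, black lines group means of 3). The shares of Scn9a-207 lie between 45.6% and 72.3%, with neurite libraries spread more widely than soma libraries.

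Of the 14 transcripts of these genes in both tables, none passed in het neurites against het soma (0.512% of all transcripts called by edgeR), nor between genotypes in soma (0.0653% called) or in neurites (1.6%), nor in the interaction (0%).

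No transcript of the 9 genes differed between genotypes in the authors' deposited table at a false discovery rate of 0.05. The lowest rate there, 0.181, belonged to the retained intron form Scn9a-205 in soma (log2 fold change of het over WT 0.63, p = 0.0148 in the authors' deposited table). That form had 27, 36 and 21 counts in WT soma and 59, 46 and 35 in het soma, and the fit over all 12 libraries gave 0.61 ± 0.39 (edgeR adjusted p = 0.860).

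Scn3a, counted through different transcripts in each compartment, was near the limit of detection. Its soma transcripts together had 12, 13 and 9 counts in WT and 17, 12 and 12 in het, and a fit of the soma table alone gave a log2 fold change of 0.15 ± 0.37 (edgeR adjusted p = 0.888, with 2.47% of 15726 genes called). Scn3a-201 had 6, 6 and 5 counts in WT and 2, 3 and 2 in het, whereas Scn3a-202 had 6, 7 and 4 in WT and 15, 9 and 10 in het. In the authors' deposited table their log2 fold changes were -1.33 (false discovery rate 0.405) and 0.87 (0.453). Scn3a-203, the form in the neurite table, had 1, 0 and 6 counts in WT and 0, 8 and 6 in het, which the filter on low counts left out of the test. A second form of Scn8a, Scn8a-205, which has no base of its own, stood in the soma table only, with 1 to 6 counts in each library.

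Other genes of the family were measured alongside. Scn7a, an atypical channel that senses sodium level, had 933 ± 161 CPM in WT soma and 691 ± 48.6 in WT neurites. Per kb it stood at 127 ± 21.9 CPM in WT soma, above the 78.0 of Scn11a. Its WT soma libraries (103 to 145 CPM per kb) overlapped those of Scn4b (84.8 to 124). Its libraries did not overlap between compartments, and its log2 fold change of -0.43 ± 0.15 passed with same-numbered libraries paired as a block (edgeR adjusted p = 0.0389) and not without it (0.126). On the pan-neuronal scale it was -0.01. Scn2a, listed under its older symbol Scn2a1 and best known from brain, had 3 to 33 counts per library in WT neurites and 25 to 33 in WT soma, and its estimates did not pass in any comparison.

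Scn4a, the channel gene of skeletal muscle, fell in het neurites. It had 7.57, 7.65 and 7.66 CPM in het soma and 2.39, 4.37 and 3.42 CPM in het neurites, without overlap, and the log2 fold change was -1.15 ± 0.21 (2.23-fold, edgeR adjusted p = 0.0267). In WT it had 6.84, 6.23 and 5.65 CPM in soma and 3.29, 4.71 and 3.31 CPM in neurites, again without overlap, at -0.74 ± 0.21 (adjusted p = 0.0735, and 0.0285 with same-numbered libraries paired as a block). Without WT neurite library 2 the WT value also passed (adjusted p = 0.0308). The difference between the genotypes in this step was -0.42 ± 0.30 (adjusted p = 0.9998). The het call was lost without any of het soma libraries 1, 2 and 3 or het neurite libraries 1 and 3 (adjusted p 0.0751 to 0.162), and on the pan-neuronal scale (-0.88, adjusted p = 0.0520).

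Of 31 genes listed as regulators and anchors of sodium channels, 30 were tested. In WT neurites 1 rose and 2 fell, against 2.41% of all genes higher and 0.688% lower, with a median log2 fold change over the 30 of -0.26. Pdzd2, a PDZ domain protein reported to bind Nav1.8, had 122, 162 and 179 CPM in WT soma and 244, 266 and 305 CPM in WT neurites, and rose 1.76-fold (log2 fold change 0.82 ± 0.18, edgeR adjusted p = 0.0283). Cntn1, an adhesion protein that raises the surface level of sodium channels, had 37.8, 30.5 and 28.8 CPM in soma and 13.6, 22.3 and 15.8 CPM in neurites, and fell 1.88-fold (-0.91 ± 0.20, adjusted p = 0.0272). Rbfox3, a neuronal splicing factor known as NeuN that is also on the pan-neuronal list, fell 1.52-fold (-0.60 ± 0.13, adjusted p = 0.0202) from 22.2 ± 0.421 to 14.7 ± 2.18 CPM. The compartments did not overlap for any of these 3 genes, as for 12.4% of all genes higher and 9.96% lower. Each of the 3 calls was lost without WT soma library 1 or 2 or without WT neurite library 1 or 3, at edgeR adjusted p-values of 0.0562 to 0.107, and kept without the other two. All 3 were also lost with the 6 WT libraries alone in the fit (adjusted p = 0.0756 for Cntn1, 0.0598 for Pdzd2 and 0.0898 for Rbfox3). With library sizes from pan-neuronal counts Rbfox3 no longer passed (-0.20, adjusted p = 0.385), whereas Cntn1 and Pdzd2 did. With same-numbered libraries paired as a block, 9 of the 30 passed, 2 higher and 7 lower, in a fit that called 1489 of the 15990 genes. Cntn1, Pdzd2 and Rbfox3 were joined by Kif5b (a kinesin heavy chain), Nfasc (an adhesion protein of nodes), Fgf12 (a cytosolic regulator of channel inactivation), Nalcn (the sodium leak channel) and its associated subunits Unc80 and Fam155a; these 6 are named because of this result.

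In het neurites against het soma none of the 30 partners passed in edgeR, 8 had an unadjusted p under 0.05 (7.64% of all genes higher and 6.75% lower) and DESeq2 called 3, with 488 of all genes called. With same-numbered libraries paired as a block, 2 passed as higher and 3 as lower, in a fit that called 671 of the 15990 genes. Those with the smallest p were Cntn1 (-0.83 ± 0.20, edgeR adjusted p = 0.0760) and Pdzd2 (0.71 ± 0.18, 0.0975). Between genotypes in soma none passed in edgeR, 1 had an unadjusted p under 0.05 (2.11% of all genes higher and 7.05% lower) and DESeq2 called 1, with 320 of all genes called. The smallest p belonged to Pdzd2 (-0.66 ± 0.18, edgeR adjusted p = 0.180) and Nedd4l, a ubiquitin ligase gene (0.22 ± 0.10, 0.549).

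In neurites Pdzd2 fell in het, where 0.494% of all genes were called higher and 2.78% lower, with 203, 156 and 122 CPM against 244, 266 and 305 CPM in WT (1.70-fold, -0.76 ± 0.18, edgeR adjusted p = 0.0378). The call was lost without WT neurite library 1 or 3 or het neurite library 2 or 3 (adjusted p 0.0862 to 0.152), and with the 6 neurite libraries alone in the fit (0.117). The WT neurite libraries enter this value and the rise of Pdzd2 in WT neurites alike. Some markers of non-neuronal cells, named after their values were seen, were like Pdzd2 highest in WT neurites and lowest in het soma. Pdzd2 averaged 154 CPM in WT soma and 97.9 in het soma, and 272 and 160 CPM in WT and het neurites. Cdh19, from the satellite glia list, averaged 245 and 155 CPM in WT and het soma and 363 and 235 in WT and het neurites, and the collagen gene Col1a2 922, 438, 1329 and 537 CPM in that order. Of the satellite glia and fibroblast lists, Glul, Col3a1, Dcn and Pdgfra did not have this pattern. Of the Schwann cell genes, Mbp, Pmp22 and S100b did not have it. Neither did any listed macrophage or endothelial gene found in both tables. With the groups in the same order, Glul averaged 462, 503, 482 and 523 CPM and Dcn 11.6, 10.3, 9.90 and 9.22 CPM. S100b averaged 487, 501, 368 and 441 CPM. The 6 fibroblast genes summed to 961 to 2955 CPM in WT neurites and 696 to 1416 in het neurites, and to 1042 to 1975 and 594 to 1057 CPM in soma. Between genotypes, 5 of 6 fibroblast genes had estimates below 0 in neurites and 6 of 6 in soma, with none past the threshold, and 1 and 0 at an unadjusted p under 0.05 (edgeR). The part of these cells in the values of Pdzd2 was not tested.

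In the interaction none of the partners passed in edgeR or DESeq2 or had an unadjusted p under 0.05, and the smallest p belonged to Rbfox3 (0.28 ± 0.17) and Sptbn4, the gene of beta-IV spectrin (0.59 ± 0.41), each at an edgeR adjusted p of 0.9998.

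Across the 12 libraries, the genes whose log2 CPM followed each alpha subunit most closely among 7149 genes with a mean of at least 10 CPM were Lrp10 and Herc1 for Scn10a (Pearson r = 0.964 and 0.945), Pcdhac2 and Ctsl for Scn11a (0.992 and 0.974) and Cntnap1 and Usp5 for Scn9a (0.958 and 0.949). For Scn1a they were Fat3 and Nat8l (0.962 and 0.955), and for Scn8a Slc35f5 and Tmed4 (0.918 and 0.915). Between the 8 channel genes themselves r ran from 0.213 (Scn8a with Scn2b) to 0.913 (Scn9a with Scn4b), and it was 0.877 for Scn10a with Scn11a. These are descriptions over 12 libraries that share compartment, genotype and culture number, and the named genes are the highest of many.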

How the data were processed

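Ribosomal RNA was depleted and stranded libraries were made, per the labels' protocols. The submitters' processing notes name mm10 (GRCm38), CASAVA 1.8.2 and edgeR, while the sources used here do not give the aligner or the program that counted. For each compartment the authors deposited raw counts per Ensembl transcript in 6 libraries; every listed transcript had at least 5 counts in 3 libraries. Beside the counts stand the authors' log2 fold change (het over WT), p-value and false discovery rate, per the file headers. A further 24 per-sample columns were not used, and 0.574% to 0.694% of the counts of a library carried no gene name.

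Counts were summed per gene over the 31420 named transcripts in both tables (16617 genes), filtered with filterByExpr, scaled by TMM and tested over 15990 genes by the quasi-likelihood test of edgeR 4.0.16 under R 4.3.3. The fit was robust, with 1 mean per group and all 12 libraries, 2-sided, with Benjamini-Hochberg adjustment per comparison and a threshold of 0.05. CPM uses TMM-adjusted library sizes. SE is the estimate divided by the square root of F. Alternatives were RLE size factors, library sizes from pan-neuronal counts, no filter, DESeq2 1.42.0, replicate blocks, 6 libraries alone and leaving out each library. The script was tested on simulated counts. Of the transcripts in the tables, 97.6% were found in GENCODE M21.

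Correlations of same-numbered WT soma and WT neurite libraries, as deviations from group means, were 0.278, 0.341 and 0.230, and those of WT and het soma 0.222, 0.273 and 0.159, so these numbers were taken as pairs. For het soma and neurites the third was 0.0504 and for WT and het neurites -0.0373, and these were not. The fit with a block by genotype and number nevertheless held a block for every culture of both genotypes. The choice of pairs was made on correlations in these same data and treats the genotypes unlike each other. Each het number also correlated best with its own number across compartments. WT and het libraries of the same number came from different mice, so they are not 1 culture. Apart from the 9 genes, the text names Scn2a, Scn4a and Scn7a, the partners past the threshold or else the 2 with the smallest p, and the 2 genes most like each tested alpha subunit. These genes and the gene lists were chosen with earlier results of these data known. Each culture came from 1 mouse, and the labels state independent biological repeats. Some further family genes and exon sequences are not reported here.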

Additional observations from a re-analysis of the deposited data

How the results depend on the processing

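In WT neurites against soma the 1 channel gene that passed became 0 with pan-neuronal library sizes or with the 6 WT libraries alone, 3 with DESeq2 and 3 with a replicate block (by number, or by genotype and number); all genes called went from 495 to 3040, 40, 1146, 1510 and 1489. Leaving out 1 library gave 0 to 3 channel genes, 0 to 3 of their transcripts and 93 to 1081 genes in all, and the replicate block gave 2 transcripts in place of 1. In het, the replicate blocks and DESeq2 each called 1 channel gene (Scn4b) in place of 0; all genes called went from 102 to 200 (pan-neuronal), 488 (DESeq2), 668 (replicate block) and 671 (block by genotype and number), and to 0 to 191 without 1 library. The block gave 1 transcript in place of 0. By genotype and number, the adjusted p of Scn4b was 0.0030, and 5 of the 30 partners passed in place of 0 (Cntn1, Kif5b, Nfasc, Pdzd2 and Unc80). For het against WT in soma no channel gene passed under any setting run, while all genes called went from 0 to 320 (DESeq2), 520 (replicate block) and 388 (6 libraries alone, with shared or all named transcripts). In neurites, 523 genes became 302 (pan-neuronal), 1209 (DESeq2), 1696 (replicate block) and 0 (6 libraries alone, with shared or all named transcripts), and 0 to 1767 without 1 library, with 0 to 1 channel genes. Higher and lower calls with pan-neuronal sizes were 3038 and 2 in WT compartments (385 and 110 with TMM), 200 and 0 in het (87 and 15) and 2 and 300 for het neurites (79 and 444). Of the alternatives for single genes of the channel family and the named partners, 768 kept direction and side of the threshold, 35 lost a call, 27 gained one and 70 reversed in sign.

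None of the 70 reversals concerned a value past the threshold. With pan-neuronal sizes the reversed log2 values were, for WT compartments, 0.13 for Scn10a, 0.12 for Scn11a, 0.066 for Scn2b and 0.29 for Scn3b; for het compartments, 0.051 for Scn3b; for het against WT in soma, -0.042 for Scn11a, -0.17 for Scn9a, -0.14 for Scn1a, -0.12 for Scn8a, -0.042 for Scn4b and -0.00028 for Scn3b; for het against WT in neurites, -0.25 for Scn11a, -0.13 for Scn9a, -0.15 for Scn4b, -0.042 for Scn2b, -0.24 for Scn3b and -0.25 for Scn7a; for the interaction, -0.071 for Scn7a. Estimates near 0 also reversed for Scn2a1 in het compartments (-0.027, replicate block by genotype and number), Scn7a in soma between genotypes (0.010, replicate block) and Scn8a there (-0.030, all named transcripts). Without 1 library, values that crossed 0 ranged, for het compartments, from -0.42 to 0.36 for Scn2a1. For het against WT in soma, they ranged from -0.10 to 0.28 for Scn8a, -0.14 to 0.095 for Scn7a, -0.011 to 0.14 for Scn1a, -0.12 to 0.16 for Scn9a and -0.0071 to 0.25 for Scn4b. For het against WT in neurites, they ranged from -0.11 to 0.39 for Scn9a, -0.36 to 0.39 for Scn8a, -0.085 to 1.30 for Scn2a1, -0.36 to 0.059 for Scn4a, -0.081 to 0.38 for Scn4b, -0.11 to 0.19 for Scn7a, -0.059 to 0.18 for Scn11a, -0.067 to 0.16 for Scn3b and -0.31 to 0.029 for Scn10a. For the interaction, they ranged from -0.13 to 0.37 for Scn9a, -0.45 to 0.31 for Scn8a, -0.36 to 0.094 for Scn2b, -0.098 to 0.20 for Scn7a, -0.22 to 0.11 for Scn10a, -0.22 to 0.23 for Scn4b and -0.19 to 0.042 for Scn11a.

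The numbers of het soma and neurites, and of WT and het neurites, were not taken as pairs. Each het library correlated best with its own number in the other compartment, whereas neurite number 3 did not across genotypes. Blocks changed no other call of a channel gene than those given. In WT soma, Scn9a stood at 1.23 CPM per kb with the longest transcript as length and Scn3b at 0.903. Per kb in no other transcript, an alternative added after seeing the data, values were 4.12 for Scn9a, 27.9 for Scn1a, 5.52 for Scn8a, 30.5 for Scn2b and 3.33 for Scn3b. The causes of these shifts were not tested. With 3 libraries per group and few counts, changes in Scn8a and Scn3a were the least well resolved.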
